A study of Rattus norvegicus with 20 samples.

Results

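The enzymes described are 8 of the route by which cells build cholesterol, namely Hmgcs1, Idi1, Fdps, Fdft1, Sqle, Lss, Cyp51 and Dhcr7. A gene was followed through each probe set, the array feature that reports 1 transcript, whose only annotated symbol is that of the gene. For 7 of the 8 there was 1 such probe set each, that is 7 of the 28826 probe sets and 7 of the 14497 genes named in this way. No probe set was matched by name for Hmgcs1, so it is not analysed here.

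RNA from blood cells of 20 male rats was measured, 1 single-colour array per rat, in 4 groups of 5: WKY/NCrl rats fed the cafeteria diet (CAF), WKY/NCrl rats fed standard chow (STD), LEW/Crl rats fed CAF and LEW/Crl rats fed STD. LEW and WKY are inbred strains, and CAF is a diet of palatable, energy-dense human foods. All rats were 15 weeks old, had been on their diet for 7 weeks and were fasted for 9 h before blood was taken. By their labels the cells are peripheral blood mononuclear cells, but according to the methods they were monocytes, kept because they stuck to plastic in serum-free medium. Values are log2 probe set values, on which a difference of 1 is a doubling, and levels are compared between rats for 1 gene at a time.

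Cholesterol is made from acetyl-CoA through mevalonate, isoprenoid diphosphates and squalene to lanosterol, which is trimmed and reduced to cholesterol. In mammals the transcription factor SREBP-2 switches these genes on together. It is held in the endoplasmic reticulum by SCAP and INSIG proteins while membrane sterol is plentiful, and travels to the Golgi for cleavage when sterol falls. Blood cells can also take up cholesterol in lipoproteins and release it through the transporters ABCA1 and ABCG1.

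The promoters of 6 of the 8 genes were in the RefSeq table of the rat assembly GRCr8, from 250 bases before to 50 after the start of each gene. They are shown for 3 enzymes of the isoprenoid and ring-closing steps, because SREBP-2 is known to act on such promoters beside the factor NF-Y, which reads CCAAT. Capitals mark CCAAT on either strand (ATTGG on the printed one) and, in Fdps, TCACACGAG, a sequence known as an SREBP site of the rat Fdps promoter.
Lss, chr20:12118181-12118480, minus strand: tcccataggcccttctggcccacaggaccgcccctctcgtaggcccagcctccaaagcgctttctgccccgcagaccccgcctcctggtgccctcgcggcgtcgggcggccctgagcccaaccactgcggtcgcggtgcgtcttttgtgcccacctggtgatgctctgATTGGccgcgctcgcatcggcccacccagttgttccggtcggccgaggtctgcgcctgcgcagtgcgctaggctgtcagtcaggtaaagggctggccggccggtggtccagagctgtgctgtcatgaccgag
Fdps, chr2:176804767-176805066, minus strand: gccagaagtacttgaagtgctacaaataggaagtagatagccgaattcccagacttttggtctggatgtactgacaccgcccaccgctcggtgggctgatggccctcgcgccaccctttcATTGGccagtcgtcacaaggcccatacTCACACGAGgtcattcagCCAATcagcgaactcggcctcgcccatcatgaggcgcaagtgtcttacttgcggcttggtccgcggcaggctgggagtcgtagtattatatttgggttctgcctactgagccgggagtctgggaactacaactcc
Idi1, chr17:66547475-66547774, minus strand: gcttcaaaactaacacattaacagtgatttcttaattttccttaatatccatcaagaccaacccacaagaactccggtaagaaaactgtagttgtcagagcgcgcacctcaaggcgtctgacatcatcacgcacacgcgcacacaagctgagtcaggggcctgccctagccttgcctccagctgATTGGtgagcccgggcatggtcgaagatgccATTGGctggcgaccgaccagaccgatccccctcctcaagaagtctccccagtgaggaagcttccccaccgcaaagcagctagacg

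CCAAT was found in 4 of the 6 windows, namely Hmgcs1, Lss, Fdps and Idi1, and it is present in 37.5% of all 33469 windows of that length. Lss held 1 match, 82 bases before the start, whereas Fdps, Idi1 and Hmgcs1 held 2 each. TCACACGAG was found in Fdps only, 103 bases before the start and between its 2 CCAAT matches, and in 0.123% of all windows. Neither TCACNCCAC (1.12% of windows) nor the E-box CACGTG (6.42%) was found in any of the 6, and the windows of Cyp51 and Dhcr7 held none of the 4 motifs. These matches on either strand are letters in a window and show no binding.

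The preparations held transcripts of several blood cell types. All 12 monocyte markers were measured, with means over the 20 arrays from 5.70 for Cd163 and 6.08 for Ms4a7 to 13.34 for Lyz2. Cd163 and Ms4a7 thus lay below the lowest array median of 6.83. Markers of T cells, B cells, NK cells, neutrophils, erythroid cells and platelets were measured as well, and the values do not give the shares of these cells. In such bulk samples, fewer cells of a type and less RNA per cell cannot be told apart. The mean level of 8 heat shock genes stood apart at 10.92 to 11.73 in 4 arrays (rat 1 of WKY STD, rat 2 of LEW CAF and rats 2 and 3 of LEW STD), against at most 10.03 in the other 16. Some results below are also given without these 4 arrays. These are the Lss strain differences, the SD ratios of the members and the r among the members. The diet differences of Sqle, Lss and Fdft1 in WKY rats and of Dhcr7 in LEW rats are given in this way too. The other results rest on all 20 arrays.

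Lss was the 1 enzyme whose level passed the test between the strains. It encodes lanosterol synthase, which folds oxidosqualene into the ring system of the sterols. On CAF, Lss had values of 8.93, 9.06, 8.72, 8.90 and 8.98 in WKY rats, against 8.47, 8.42, 8.18, 8.42 and 8.81 in LEW rats. On STD, it had 9.13, 9.32, 9.18, 9.10 and 9.29 in WKY rats, against 8.54, 8.61, 8.37, 8.04 and 8.58 in LEW rats. The strains were separate on STD, and on CAF only rat 5 of LEW reached into the WKY range.

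Lss was higher in WKY rats by 0.46 ± 0.11 on CAF (SE, limma adjusted p = 0.00969), which is 1.37-fold, and by 0.78 ± 0.11 on STD (adjusted p = 4.57e-05), which is 1.71-fold. Averaged over both diets the difference was 0.62 ± 0.08 (adjusted p = 4.98e-06). It was the single call among the 7 enzymes in each of these comparisons, in which 7.58% of all probe sets were called on CAF, 11.3% on STD and 17.2% over both diets. No other member was called, so the share of members called, 1 of 7, is near the background. The ranges of the strains did not overlap for Lss alone on STD (1 of 7, with 4.37% of all probe sets higher in WKY in this way) and for no member on CAF (0 of 7, with 4.16%).

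Without the 4 arrays of high heat shock level, the Lss difference was 0.45 on CAF (adjusted p = 0.031) and 0.84 on STD (adjusted p = 0.000836). The marker levels of blood cell types differed with the strains as well. With both diets pooled there was no overlap for monocytes and NK cells, and some overlap for the other lists given here. The mean level of the 12 monocyte markers lay between 10.17 and 10.72 in WKY rats and between 10.85 and 11.08 in LEW rats, and that of all 6 NK cell markers between 10.15 and 10.77 in WKY rats and between 9.00 and 9.74 in LEW rats. The monocyte markers did not all differ in 1 direction. By limma 4 of the 12 were called lower in WKY rats and 0 higher on CAF, and 4 lower and 2 higher on STD. Their median difference was -0.25 on CAF and -0.08 on STD. Of all probe sets 7.58% were called on CAF and 11.3% on STD. The 9 neutrophil markers lay at 9.55 to 11.27 in WKY rats and at 8.29 to 9.93 in LEW rats. Within STD alone they did not overlap, at 9.62 to 11.27 in WKY rats and 8.29 to 9.00 in LEW rats. The 8 measured of 9 erythroid markers lay at 8.34 to 9.52 in WKY rats and at 8.53 to 10.58 in LEW rats. Within CAF alone they did not overlap, at 8.34 to 9.52 in WKY rats and 9.58 to 10.58 in LEW rats. The 4 measured of 6 platelet markers lay at 11.94 to 12.39 in WKY rats and at 12.20 to 12.92 in LEW rats. With the neutrophil level as a covariate the Lss difference was 0.28 on CAF (adjusted p = 0.396) and 0.48 on STD (adjusted p = 0.284), and the call was lost on both diets. Calls over all 28826 probe sets fell as well, to 966 on CAF and 404 on STD, against 2185 and 3247 without a covariate. Over the 36 alternatives tried for each diet, the adjusted p ran up to 0.396 on CAF and 0.284 on STD, and down to 0.000987 on CAF and 1.01e-05 on STD. Their part in the difference was not tested beyond such covariates.

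**Figure D1:**
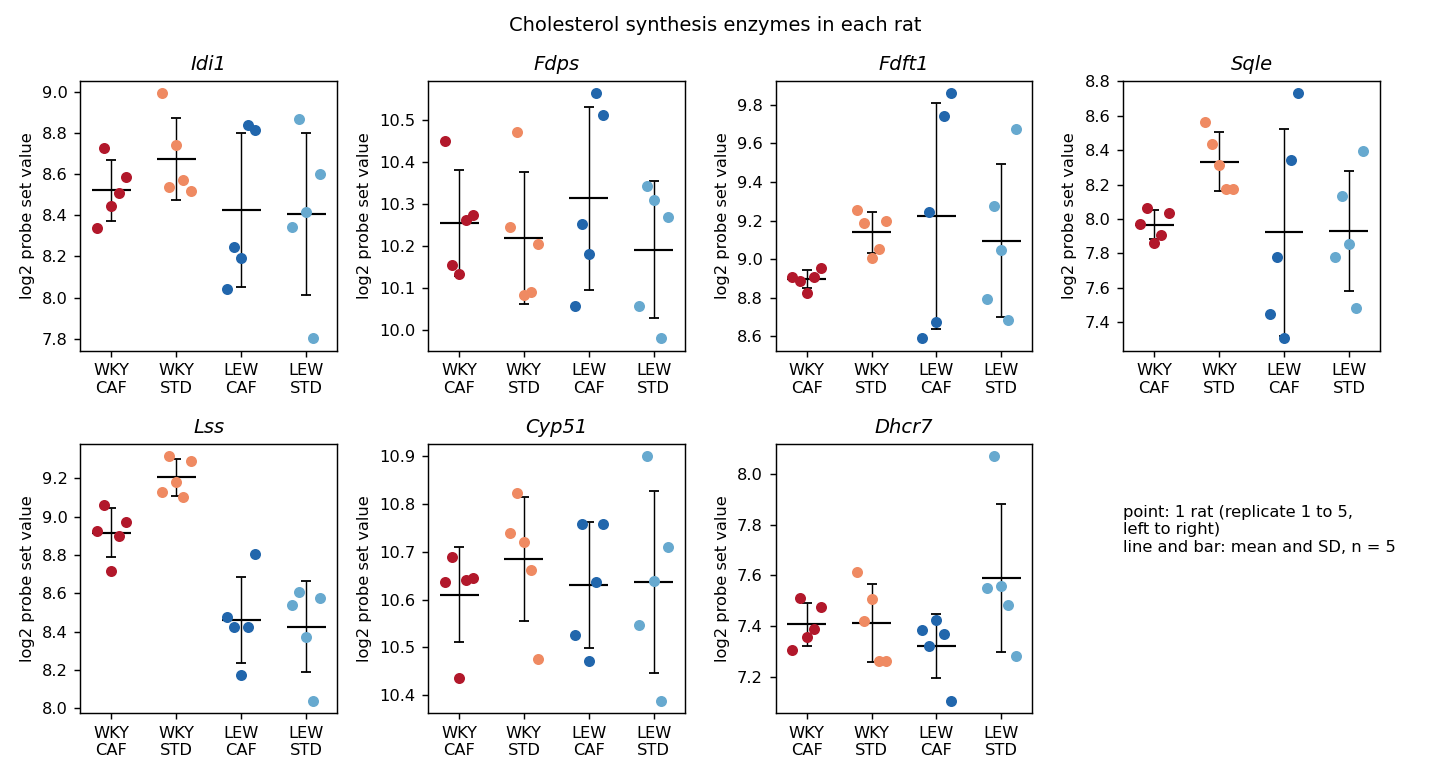
Log2 probe set values (y axis, separate scale per gene) of the 7 measured enzymes, 1 point per rat, against strain and diet (x axis), with the mean and SD of 5 rats. Lss of WKY STD rats lay at 9.10 to 9.32, above all LEW STD rats at 8.04 to 8.61, and the LEW points of Fdft1 and Sqle are spread far wider than the WKY points.

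The enzymes of the isoprenoid steps were not called between the strains. Idi1 interconverts the isoprene building blocks. On CAF its values were 8.34, 8.73, 8.44, 8.51 and 8.59 in WKY rats, against 8.04, 8.24, 8.19, 8.84 and 8.81 in LEW rats. On STD they were 8.99, 8.54, 8.74, 8.57 and 8.52 in WKY rats, against 8.34, 8.87, 8.42, 7.80 and 8.60 in LEW rats. On each diet 3 LEW rats lay below every WKY rat, and on CAF the other 2 LEW rats lay above every WKY rat.

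Fdps joins isoprene units into farnesyl diphosphate, the last intermediate shared with the prenylation of proteins. It lay at 10.13 to 10.45 in WKY rats on CAF, at 10.08 to 10.47 in WKY rats on STD, at 10.06 to 10.56 in LEW rats on CAF and at 9.98 to 10.34 in LEW rats on STD. The 95% interval of its strain difference ran from -0.27 to 0.15 on CAF and from -0.18 to 0.24 on STD.

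Fdft1 and Sqle make squalene and oxidise it, and they showed the widest spread. Fdft1, squalene synthase, is the first enzyme committed to sterols. On CAF, Fdft1 had 8.91, 8.89, 8.82, 8.91 and 8.96 in WKY rats, against 8.59, 9.24, 8.68, 9.74 and 9.86 in LEW rats. On STD, it had 9.26, 9.19, 9.00, 9.05 and 9.20 in WKY rats, against 8.79, 9.28, 9.05, 8.68 and 9.68 in LEW rats. All 10 WKY rats lay between the lowest and the highest LEW rat, and the strain difference was -0.33 ± 0.21 on CAF (SE, limma adjusted p = 0.454). With 1 array left out it lay between -0.48 (without rat 1 of LEW CAF) and -0.17 (without rat 5 of LEW CAF), and it was -0.81 with the monocyte level as a covariate.

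Sqle, squalene epoxidase, carries out the first oxygenation of the route. On CAF, Sqle had 7.97, 8.06, 7.86, 7.91 and 8.03 in WKY rats, against 7.45, 7.78, 7.31, 8.34 and 8.73 in LEW rats. On STD, it had 8.57, 8.44, 8.32, 8.17 and 8.17 in WKY rats, against 7.78, 8.13, 7.85, 7.48 and 8.40 in LEW rats. On STD only rat 5 of LEW came above any WKY rat, and the difference of 0.40 ± 0.21 did not pass (limma adjusted p = 0.256).

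The sterol-trimming enzymes were not called between the strains either. Cyp51 removes a methyl group from lanosterol, and its 20 values lay between 10.39 and 10.90, with 95% intervals of the strain difference of -0.20 to 0.16 on CAF and -0.13 to 0.23 on STD. Dhcr7, which reduces the last precursor to cholesterol, had 7.31, 7.51, 7.36, 7.39 and 7.47 in WKY rats on CAF, against 7.38, 7.32, 7.43, 7.37 and 7.11 in LEW rats on CAF. On STD, it had 7.61, 7.42, 7.51, 7.26 and 7.26 in WKY rats, against 7.55, 8.07, 7.56, 7.48 and 7.28 in LEW rats. Rat 2 of LEW STD was the highest of all 20 and is 1 of the 4 arrays of high heat shock level.

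**Figure D2:**
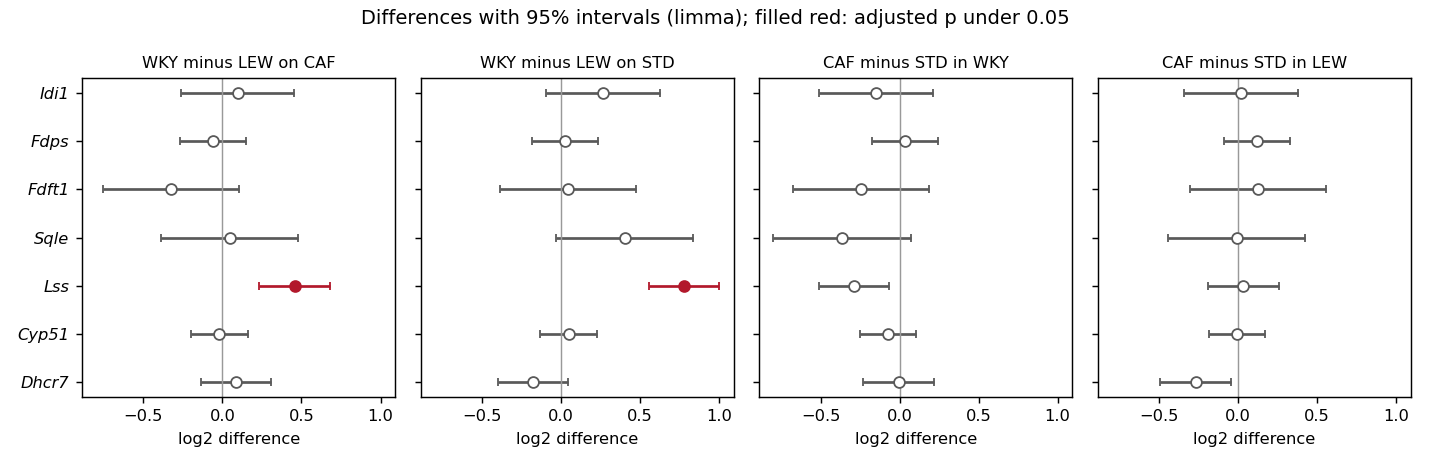
Log2 differences of the 7 enzymes (x axis) with 95% intervals from limma, for WKY against LEW on each diet and CAF against STD in each strain. Filled red points passed an adjusted p of 0.05, which was the case for Lss between the strains, at 0.46 on CAF and 0.78 on STD, and for no enzyme between the diets.

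No enzyme passed the test of diet, yet in WKY rats 3 of the 7 had every CAF value below every STD value. In WKY rats Sqle lay at 7.86 to 8.06 on CAF and at 8.17 to 8.57 on STD, Lss at 8.72 to 9.06 on CAF and at 9.10 to 9.32 on STD, and Fdft1 at 8.82 to 8.96 on CAF and at 9.00 to 9.26 on STD. CAF values were entirely below STD values in this way for 0.961% of all probe sets. The differences were -0.36 ± 0.21 for Sqle (SE, limma adjusted p = 0.650), -0.29 ± 0.11 for Lss (adjusted p = 0.415) and -0.24 ± 0.21 for Fdft1 (adjusted p = 0.788).

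The median difference of the 7 enzymes between CAF and STD in WKY rats was -0.15, and that of all probe sets -0.0084. No member and 0% of all probe sets were called by limma between the diets in WKY rats, where 2539 probe sets and 1 member, Lss, had an unadjusted p under 0.05. No other tool was run. The limma fit shares 1 spread between the strains, and with the WKY rats fitted alone the adjusted p was 0.206 for Sqle, 0.250 for Lss and 0.240 for Fdft1. Over all alternatives it ran between 0.206 and 0.801 for Sqle, between 0.241 and 0.785 for Lss and between 0.240 and 0.894 for Fdft1. The 3 genes are not independent of each other, since they were measured in the same 10 rats.

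Msmo1, the oxidase that takes the remaining methyl groups off the sterol ring, was the 1 of the 13 other enzymes of the route measured that also had every CAF value below every STD value in WKY rats, as was noticed after its values were seen. It had 9.74, 9.32, 9.24, 9.49 and 9.62 in WKY rats on CAF, against 9.9985, 10.05, 9.80, 10.10 and 9.83 in WKY rats on STD. The groups did not overlap, and the difference of -0.47 ± 0.24 did not pass (limma adjusted p = 0.598). For the 13 other enzymes the median difference in WKY rats was -0.0094, beside -0.0084 for all probe sets. It was 0.04 for the 27 regulators and sterol genes described below. Of these, Scap lay wholly higher on CAF (9.95 to 10.03, against 9.61 to 9.90 on STD). So did Fads2 (8.59 to 9.00, against 8.30 to 8.51), whereas Soat1 lay wholly lower (10.84 to 11.17, against 11.22 to 11.37). CAF values were entirely above STD values for 1.11% of all probe sets. The monocyte marker level lay at 10.17 to 10.65 in WKY rats on CAF and at 10.52 to 10.72 in WKY rats on STD, and with it as a covariate the differences were -0.52 for Sqle, -0.25 for Lss and -0.44 for Fdft1, none of them called (limma adjusted p = 0.760, 0.785 and 0.798). Without the 4 arrays, of which 1 is a WKY STD rat, the differences were -0.31 for Sqle, -0.31 for Lss and -0.21 for Fdft1.

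In LEW rats the diets overlapped for all 7 enzymes, with CAF values entirely below STD values for 0.59% of all probe sets. The median difference of the 7 between CAF and STD was 0.02, and that of all probe sets -0.0042. Dhcr7 had the largest difference, -0.27 ± 0.11 (SE, limma adjusted p = 0.884), and was the 1 member with an unadjusted p under 0.05, as were 1575 of all probe sets. Without the 4 arrays of high heat shock level, 3 of which are LEW rats, it was -0.12, and without rat 2 of LEW STD alone it was -0.15. No member and 0% of all probe sets were called by limma in LEW rats.

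The diet effects of the strains were also set against each other directly. The difference of the effects, WKY minus LEW, was -0.36 ± 0.29 for Sqle (SE, limma adjusted p = 0.901), -0.32 ± 0.15 for Lss (adjusted p = 0.837) and -0.37 ± 0.29 for Fdft1 (adjusted p = 0.901). By limma 0% of all probe sets passed this test, with 1714 probe sets and 1 member, Lss, at an unadjusted p under 0.05. So a difference of the diet effect between the strains was not shown for any member. Without rat 5 of LEW CAF the value was -0.15 for Sqle and -0.21 for Fdft1, and with any 1 array left out it went no lower than -0.51 for Sqle (without rat 3 of LEW CAF) and -0.53 for Fdft1 (without rat 1 of LEW CAF). For the diets averaged over both strains, 0% of probe sets and no member were called by limma, with 2382 probe sets and no member at an unadjusted p under 0.05.

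For the enzymes around squalene, WKY rats of 1 group were close together and LEW rats far apart. The SD between rats of the same diet was 0.0823 among WKY and 0.501 among LEW rats for Fdft1, a ratio of LEW over WKY of 6.09. For Sqle the ratio was 3.65, for Idi1 2.18, for Lss 2.06, for Dhcr7 1.82, for Cyp51 1.41 and for Fdps 1.35. The SD was larger in LEW rats for 7 of 7 members, beside 52.6% of all probe sets, whose median ratio was 1.03. These SDs are a description, with 10 rats per strain, and were not tested.

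For Fdft1 and Sqle this pattern did not rest on 1 rat. With any 1 array left out the ratio stayed between 5.62 and 7.50 for Fdft1 and between 2.97 and 4.67 for Sqle, whereas for Dhcr7 it ranged from 1.03 to 2.21. Without the 4 arrays of high heat shock level the ratio was 8.60 for Fdft1 and 5.79 for Sqle. It was then 3.16 for Idi1, 2.40 for Lss, 1.41 for Dhcr7, 1.41 for Fdps and 1.16 for Cyp51. Among other enzymes of the route, Msmo1 had a ratio of 3.26, and of 2.81 to 3.74 with any 1 array left out. Tm7sf2, a sterol reductase, had 2.15 (1.47 to 3.61 with 1 array left out), whereas Mvk, mevalonate kinase, had 0.80 (0.45 to 1.05).

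**Figure D3:**
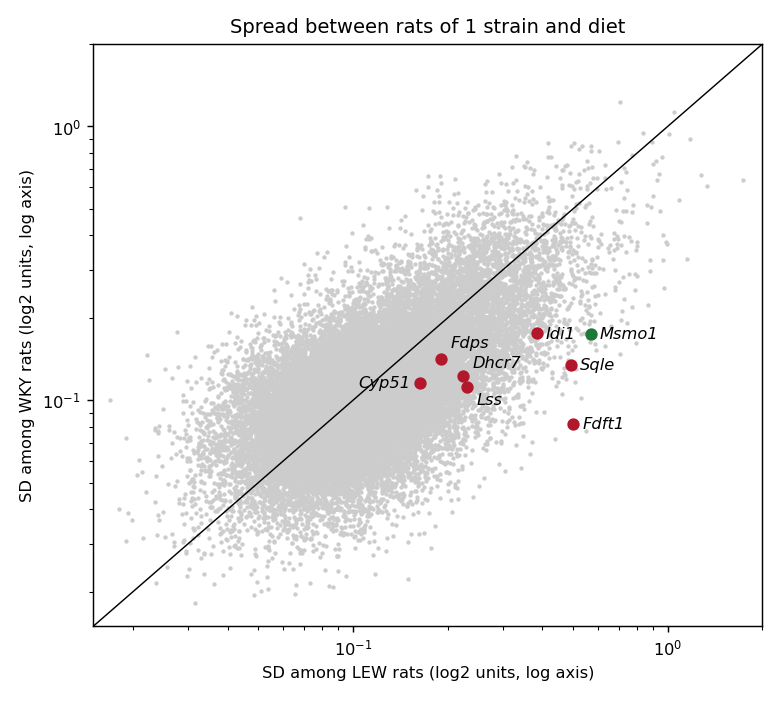
SD between rats of 1 strain and diet in WKY rats (y axis) and in LEW rats (x axis), both in log2 units on log axes, for all 28826 probe sets (grey), the 7 enzymes (red) and Msmo1 (green), with the line of equal SD. Fdft1 lies farthest below the line among the enzymes, at 0.0823 in WKY and 0.501 in LEW rats.

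The same LEW rats were high or low for several enzymes at once. The deviation of a rat from its group mean, averaged over the 7 enzymes, stayed between -0.11 and 0.13 in the 10 WKY rats. It was -0.25, -0.04, -0.27, 0.23 and 0.33 in rats 1 to 5 of LEW CAF, and -0.09, 0.28, -0.01, -0.35 and 0.18 in rats 1 to 5 of LEW STD. Rats 4 and 5 of LEW CAF were thus the high rats of their group, and rats 1 and 3 the low ones, for Sqle, Fdft1 and Idi1 alike.

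**Figure D4:**
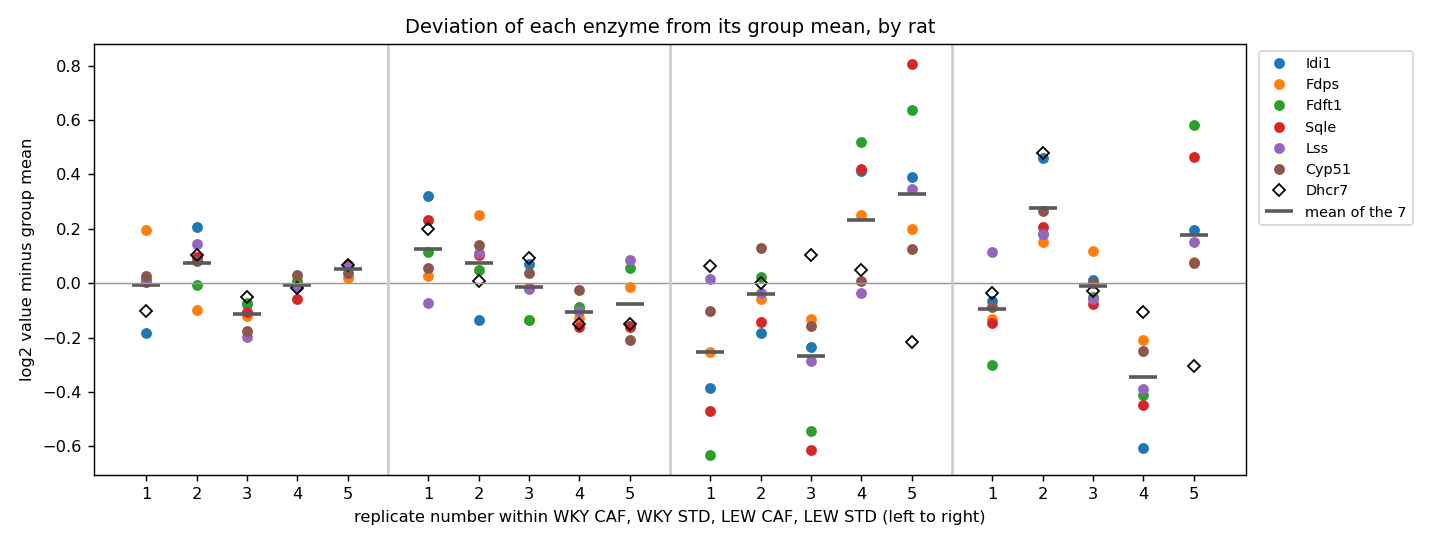
Log2 value of each of the 7 enzymes minus its group mean (y axis) in each of the 20 rats (x axis, by group), with the mean of the 7 as a grey bar. In LEW CAF the points of rats 1 and 3 lie mostly below 0 and those of rats 4 and 5 mostly above, with means of -0.25, -0.27, 0.23 and 0.33, whereas Dhcr7 (open diamonds) does not follow.

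Over the 20 arrays the deviations of 6 enzymes, all but Dhcr7, were positively correlated in each of their 15 pairs, with a Pearson r of 0.51 to 0.94 (median 0.66) and a Spearman rho of 0.39 to 0.85. Dhcr7 was set apart because it did not follow in these same data, so 15 positive values are partly a matter of that choice. Fdft1 and Sqle, which act in sequence, had the highest r of 0.94 (rho 0.85). Of all 105074256 pairs of named genes, 4.75% had an r of 0.51 or more, and the median was 0.01. The cut of 0.51 is itself the lowest of the 15 values. Without the 2 rats farthest from the median of the first gene of a pair, chosen anew for each pair, the 15 values ran from 0.32 to 0.92. Without the 4 arrays of high heat shock level they ran from 0.50 to 0.95. The points share arrays, groups and any difference in cell makeup, and no p is given.

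Within the strains, the median r of the 15 pairs was 0.41 among the 10 WKY rats, with a lowest value of -0.33, and 0.78 among the 10 LEW rats, with a lowest value of 0.55. The deviations of the WKY rats also covered a smaller range. The difference between the strains in r was not tested. Dhcr7 had an r of -0.21 to 0.37 with each of the other 6. Among WKY rats alone the median r of Dhcr7 with the other 6 was 0.42, near the 0.41 of the 15 pairs, and among LEW rats it was -0.01. Against the mean of the other 6 Dhcr7 had an r of 0.72 among WKY rats and -0.09 among LEW rats. Without the 4 arrays of high heat shock level, Dhcr7 had an r of -0.61 to -0.16 with each of the other 6.

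Other enzymes of the route were set against the mean deviation of the 7. Msmo1 had an r of 0.87, Sc5d, a sterol desaturase, 0.75, Hsd17b7, a sterol keto-reductase, 0.75, Nsdhl, which removes a carboxyl group, 0.57, and Pmvk, a kinase of mevalonate phosphate, 0.54. Against these, Ebp, Tm7sf2 and Mvk had 0.10, 0.06 and 0.04, and Lbr, Mvd, Acat2 and Acat1 had -0.18, -0.23, -0.35 and -0.36. Both sets hold enzymes from before and after squalene. Among WKY rats alone Msmo1 had an r of 0.25, against 0.94 among LEW rats, and Hsd17b7, Sc5d, Pmvk, Acat2, Lbr and Nsdhl had 0.66, 0.54, 0.54, 0.51, 0.48 and 0.43 among WKY rats. The others, Mvd, Ebp, Ggps1, Mvk, Acat1 and Tm7sf2, had 0.33, 0.15, -0.02, -0.08, -0.11 and -0.37 among WKY rats.

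**Figure D5:**
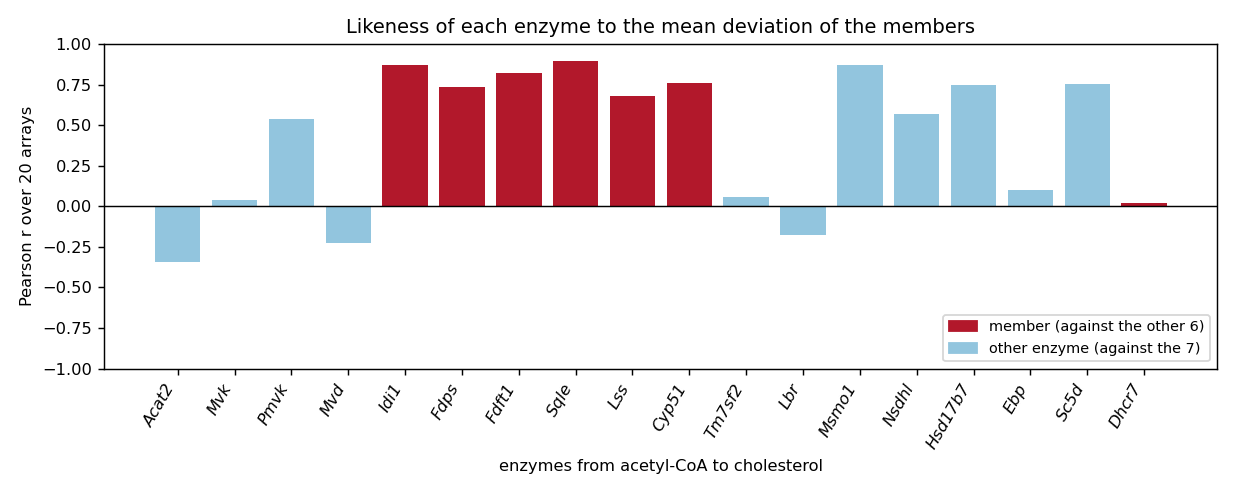
Pearson r over 20 arrays (y axis) between the deviations of enzymes of the route (x axis, in the order of the reactions) and the mean deviation of the other 6 members (red) or of all 7 (blue). Acat1 and Ggps1, with an r of -0.36 and 0.18, are not drawn. Members other than Dhcr7 lie between 0.68 and 0.90, and Msmo1 stands at 0.87.

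The 10 genes outside the members whose deviations were most like the mean of the 7 were Timp1 (r 0.94), Cptp (0.91), Nqo1 (0.91), Zfyve26 (0.90), Akr1b8 (0.89), Pld3 (0.89), Ndc80 (0.88), Ttc1 (0.88), Msmo1 (0.87) and Hmgn5b (0.87), over 20 arrays and 14497 named genes. Only Msmo1 of these is an enzyme of the route. Timp1 encodes an inhibitor of metalloproteinases, Cptp a carrier of ceramide phosphate, and Nqo1 and Akr1b8 encode reductases of quinones and of aldehydes. Among WKY rats alone the r of the 10 genes ran from 0.25 for Msmo1 to 0.83 for Ttc1, with 0.66 for Timp1, against 0.90 for Ttc1 to 0.99 for Cptp among LEW rats.

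Several marker levels were correlated with the mean deviation of the 7 enzymes, in WKY rats as well as in LEW rats. In rats 1 to 5 of LEW CAF the erythroid level was 10.31, 10.39, 10.58, 9.58 and 9.69, and the monocyte level 10.9956, 10.91, 11.08, 10.85 and 10.89. The r with the mean of the 7 enzymes was 0.52 in WKY rats and -0.60 in LEW rats for the erythroid level, and 0.63 in WKY rats and -0.65 in LEW rats for the monocyte level. It was -0.82 in WKY rats and -0.15 in LEW rats for the NK cell level, and 0.61 in WKY rats and -0.36 in LEW rats for the B cell level. For the platelet level it was 0.07 in WKY rats and -0.52 in LEW rats, and for the neutrophil level 0.01 in WKY rats and 0.45 in LEW rats. For the heat shock level it was 0.56 in WKY rats and 0.24 in LEW rats, for the T cell level -0.38 in WKY rats and -0.16 in LEW rats, and for the cell division level 0.16 in WKY rats and 0.22 in LEW rats. The part of these levels in the relation among the enzymes was not tested.

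Regulators and other sterol genes were read from a list of 30, of which 27 were measured. Srebf2, the gene of SREBP-2, was not called in any comparison and had values of 10.21 to 10.57 in WKY rats on CAF, 10.25 to 10.70 in WKY rats on STD, 10.18 to 10.46 in LEW rats on CAF and 10.08 to 10.33 in LEW rats on STD. Its r with the mean of the 7 enzymes was -0.23, with 0.14 among WKY rats and -0.51 among LEW rats. Insig1, a brake on SREBP cleavage that is itself an SREBP target, had an r of 0.35, with 0.79 among WKY rats and 0.26 among LEW rats.

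Between the strains, 5 of these 27 genes were higher and 1 lower in WKY rats on CAF, and 3 were higher and 4 lower on STD, at an adjusted p under 0.05 by limma. Over all probe sets, 7.58% were called on CAF, 11.3% on STD and 17.2% over both diets. The median difference of the 27 was 0.03 on CAF and -0.02 on STD, beside -0.0092 and -0.0026 for all probe sets. Abca1, which exports cholesterol, was higher in WKY rats by 1.78 ± 0.10 on CAF (SE, adjusted p = 2.33e-10) and by 1.88 ± 0.10 on STD (adjusted p = 1.07e-10). Fads1, a desaturase of fatty acids, was higher by 2.06 on CAF and 1.64 on STD (adjusted p = 7.57e-06 and 9.44e-05). Soat1, which esterifies cholesterol for storage, fell by 0.43 on CAF (adjusted p = 9.57e-05) and by 0.20 on STD (adjusted p = 0.0451) in WKY against LEW rats.

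The remaining genes of this list were called on 1 diet or in the average over both. On CAF, Acss2, which makes acetyl-CoA from acetate, was higher in WKY rats by 0.60, Fads2 by 0.47 and the transporter Abcg1 by 0.16. On STD, Npc2, a carrier of lysosomal cholesterol, was higher by 0.27, whereas Lpin1 fell by 0.35, Mbtps1, the protease that first cuts SREBPs, fell by 0.32, and Rnf145, a ubiquitin ligase, fell by 0.30. Averaged over both diets Insig2 and Scd2 were higher by 0.17 each, and Stard4, a sterol carrier, fell by 0.15. The diet by strain interaction was not called for any of them.

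Of the 15 other enzymes of the route 13 were measured, and 1, Acat2, was called between the strains. The share of all probe sets called was 7.58% on CAF, 11.3% on STD and 17.2% over both diets. Acat2 joins acetyl-CoA units at the head of the route. It was higher in WKY rats by 0.24 ± 0.07 on STD (SE, limma adjusted p = 0.0379) and by 0.20 ± 0.05 over both diets (adjusted p = 0.0103), and by 0.16 on CAF, where it did not pass (adjusted p = 0.263). Nsdhl had a strain difference of -0.15 ± 0.06 over both diets (SE, adjusted p = 0.0842) and Ggps1, which makes geranylgeranyl diphosphate, -0.15 ± 0.07 (adjusted p = 0.149), and neither passed. The median difference of the 13 was -0.02 on each diet. None of the 13 or of the 27 was called between the diets or in the interaction.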

How the data were processed

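RNA from blood cells of 20 rats was measured on 1 array each, grouped by the array's label. The authors deposited 1 table of log2 values for 28826 probe sets, already normalised. RMA is the normalisation named in the methods, whereas the submitters' processing notes name MAS5. The values were used as deposited, with no filter and no further normalisation, and the precision rests on 5 rats per group.

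Group means of all 20 arrays were fitted together in limma 3.58.1 (R 4.3.3). The residual degrees of freedom were 16 and the prior ones 3.67, and p-values were adjusted by Benjamini-Hochberg across the whole table. A call is an adjusted p under 0.05. The fit was tested on simulated data. Gene names came from the platform annotation, which lists 15515 probe sets, 306 of them under several symbols. Where a gene had several probe sets, that of the highest mean was used. All members are named, and of the other route enzymes and the sterol genes each one called in any comparison, with Srebf2 and Insig1, as well as the 10 genes of highest r with the members' mean deviation. Where fewer than 4 of a list were called, the 4 of smallest p are named, and further route enzymes were named for their r or spread after their values were seen. Marker lists are given by their mean level. The members and lists were chosen with earlier results of these data known. Co-variation was computed on deviations from group means. A limma fit on absolute deviations, tried for the difference in spread, did not recover known differences in simulated data and is not used, so the SDs carry no test.

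Alternatives were 2 other normalisations, a filter on dim probe sets, named probe sets only, a trended robust prior, array weights, only the groups compared, the replicate number as a block, marker levels as covariates and each array left out. The neutrophil and platelet covariates and the fit without the 4 arrays of high heat shock level were added after the data had been seen.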

Additional observations from a re-analysis of the deposited data

Results flagged for a closer look

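Cyp51 of rat 3 in WKY CAF, at 10.44, lay apart from the other 4 rats of its group, at 10.64 to 10.69. The gap over the range of the group was 0.793, above Dixon's critical value of 0.71 for 5 arrays. It was the 1 such value among 40 groups examined, that is 10 genes in 4 groups, and chance alone sets apart about 1 in 20 groups. The same rat was the lowest of its group for Lss, Sqle and Fdft1 as well.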

How the results depend on the processing

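The number of members called stayed within 1.5 times its value in 243 of 249 alternatives. Many of these concern the diets and the interaction, where no probe set at all was called in the main fit. The count could hardly move there, and what could be lost was the call of Lss between the strains. In the 6 alternatives that moved, the count was 0. These were WKY against LEW on CAF with the monocyte, erythroid, neutrophil or platelet level as a covariate, and on STD and over both diets with the neutrophil level. The Lss difference was then, on CAF, 0.55 (adjusted p = 0.247) with the monocyte, 0.33 (adjusted p = 0.169) with the erythroid, 0.28 (adjusted p = 0.396) with the neutrophil and 0.34 (adjusted p = 0.0834) with the platelet level by limma. With the neutrophil level it was 0.48 on STD (limma adjusted p = 0.284) and 0.38 over both diets (limma adjusted p = 0.192). Calls over all probe sets fell as well. On CAF they were 678, 1642, 966 and 1731 with the monocyte, erythroid, neutrophil and platelet level, against 2185 without a covariate. With the neutrophil level they were 404 on STD and 899 over both diets, against 3247 and 4947. These marker levels differ between the strains, and the cause of the lost calls was not tested. With 1 array left out in turn, Lss differed between the strains by 0.39 to 0.54 on CAF and by 0.68 to 0.82 on STD, and remained called in all 20 fits. Of 1743 alternatives of the 49 differences of a member in a comparison, 1625 kept their sign and their side of the threshold, 6 were the Lss values above, and 112 changed sign. The 112 concern 24 differences, none of them called, of at most 0.22 in size, which therefore have no settled direction and are mostly not printed. The replicate numbers were not used as pairs in the main fit. The mean correlation of deviations within a number was 0.16 and 0.12 for numbers 5 and 2 and at most 0.04 for the others. Of the 20 arrays 6 were most like their own number, and whether rats of 1 number share a batch was not tested. With the replicate block, 2345 probe sets were called on CAF between the strains, 3384 on STD and 1 for the diet in WKY rats, and Lss remained the member called, by 0.46 on CAF and 0.78 on STD. Differences in weak probe sets are less visible on arrays, and absolute levels of different genes cannot be compared.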
